A study of Mus musculus with 6 samples.

Results

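Thyroid hormone transport, activation and response was followed through 9 mouse genes in neural stem cells divided by a Spot14 reporter. The genes were the transporter Slco1c1, the cytosolic binding protein Crym, the deiodinases Dio2 and Dio3, the receptors Thra and Thrb, the corepressors Ncor1 and Hr, and the target gene Klf9. Every probe set (a group of short probes for one transcript) that the platform annotation tied to exactly 1 of these genes was taken. This gave 18 probe sets for 7 of the 9 genes, out of 34945 probe sets for 18193 genes on the array. Dio3 and Ncor1 had no such probe set in the annotation used and were not analysed here.

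The series holds 6 Affymetrix arrays, 3 of Spot14 GFP positive and 3 of Spot14 GFP negative mouse neural stem cells, which the labels call biological replicates. Both groups are described as reporter cells and differ in the labels only in GFP status. Strain, genotype beyond the reporter, age, culture conditions and the way the cells were separated are not stated in the labels. The Spot14 protein is encoded by Thrsp, which is known for its response to thyroid hormone in lipogenic tissues. The question taken here is whether genes that take up, activate, sense or answer to the hormone differ between cells with and without the reporter signal. The median signal was 3.55 to 3.66 on all arrays. Correlations between arrays, taken across tested genes, were lower among the GFP negative arrays (0.952 to 0.982) than among the GFP positive ones (0.985 to 0.993).

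Thyroid hormone enters brain cells through membrane carriers, since it crosses lipid membranes poorly without them. Thyroxine, the main circulating form, binds nuclear receptors weakly; Dio2 removes an iodine from its outer ring to make triiodothyronine, the active form, and Dio3 inactivates both by removing one from the inner ring. In brain Dio2 is best known from astrocytes and tanycytes. Receptors encoded by Thra and Thrb sit on DNA with retinoid X receptors, recruit corepressors such as Ncor1 when empty and coactivators when the hormone is bound. Klf9 and Hr are among the target genes of brain that respond directly.

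Dio2 was the only one of the 9 genes that passed the test, and it was 2.65-fold higher in GFP positive cells. Klf9 and Thra were also measured well above background, and the probe sets that stand for them were 1.28-fold higher each in GFP positive cells, without passing. Other Klf9 probe sets showed larger differences than the one that stands for the gene, up to 2.10-fold. Slco1c1, Crym, Thrb and Hr lay near background in one or both groups and were not tested. The values below are log2 signals of the authors' GCRMA processing, which gathers dim probe sets at a low floor. The test took genes with log2 4 or more on at least 3 of the 6 arrays.

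The promoter sequences of Dio2, the gene that passed, and of Klf9, the target gene with the most probe sets, are shown with the 250 bases before the RefSeq start in assembly GRCm38.p6. Dio2 lies on the minus strand at chr12:90739039-90739288 for this stretch and Klf9 on the plus strand at chr19:23140976-23141225. Both are printed 5′ to 3′ along the gene, and capitals mark a match to a searched motif.
Dio2: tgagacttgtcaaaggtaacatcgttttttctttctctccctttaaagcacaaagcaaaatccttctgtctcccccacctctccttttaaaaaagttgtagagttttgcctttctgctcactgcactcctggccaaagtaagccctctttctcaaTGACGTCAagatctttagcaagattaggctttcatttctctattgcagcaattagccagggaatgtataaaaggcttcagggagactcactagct
Klf9: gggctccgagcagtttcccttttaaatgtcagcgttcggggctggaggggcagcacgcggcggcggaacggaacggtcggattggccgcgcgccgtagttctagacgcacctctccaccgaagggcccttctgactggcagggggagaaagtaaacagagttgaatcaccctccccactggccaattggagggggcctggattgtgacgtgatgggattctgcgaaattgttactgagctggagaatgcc
The capitals in Dio2 are the palindromic cyclic AMP response element TGACGTCA, 95 to 88 bases before the start. Cyclic AMP is known to raise Dio2 transcription through such an element. It was in 1.55% of 32851 RefSeq promoter windows of the same length. The nuclear receptor hexamer AGGTCA, searched on both strands, was in 14% of windows and in neither of these sequences. Its direct repeat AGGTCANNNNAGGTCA, the classical thyroid hormone response element, contains the hexamer and was in 0.0152% of windows and in neither. RefSeq windows were found for 6 of the 9 genes, and among the others the hexamer occurred once, in 1 of the 2 windows of Thrb, 184 to 179 bases before that start. No match says only that these letters are not in this window.

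Uptake is described first. Slco1c1 encodes an organic anion transporter that carries thyroxine at the blood-brain barrier and into astrocytes. Its single probe set read 3.91, 4.20 and 3.03 in the GFP positive samples, against 2.61, 3.67 and 3.46 in the GFP negative ones. The groups overlapped, and only GFP positive replicate 2 reached log2 4. The means were 3.71 ± 0.61 and 3.25 ± 0.56 (SD, n = 3 each), and the difference of 0.47 lay within the spread between arrays. Slco1c1 was not tested after the filter, and in a fit without any filter its limma adjusted p was 0.862. Of 6 endothelial markers 5, among them Pecam1, Cdh5 and Cldn5, were near background in both groups.

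Inside the cell the hormone can be held by crystallin mu, the product of Crym. Crym read 2.39, 2.51 and 2.57 in the GFP positive samples, against 2.48, 2.45 and 2.45 in the GFP negative ones. All 6 values lay at background, and the sign of the difference of 0.03 turned with quantile normalization, so no direction is given.

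Deiodination carried the clearest difference. The brightest Dio2 probe set (1418937_at) read 10.04, 10.16 and 10.19 in the GFP positive samples, against 8.64, 9.07 and 8.47 in the GFP negative ones. Every GFP positive array lay above every GFP negative array, with a gap of 0.97 between the groups, and the GFP positive arrays were close together. The means were 10.13 ± 0.08 and 8.73 ± 0.31 (SD, n = 3 each). The difference of 1.41 on the log2 scale (SE 0.21, 95% interval 0.92 to 1.89) corresponds to 2.65-fold, with an interval from 1.90-fold to 3.70-fold, and passed (limma adjusted p = 0.0162). Dio2 ranked at position 148 of 10531 tested genes by size of the difference toward GFP positive cells. The exact 2-sided permutation test over the 6 arrays gave p = 0.1, the smallest that 3 against 3 allows.

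The count of members that passed was thus 1 higher of 3 tested genes and 0 lower, and limma gave the same counts at an unadjusted p under 0.05. Over all genes tested, 2.35% passed as higher and 2.11% as lower, and at the unadjusted threshold 9.92% were higher and 8.28% lower. The call of Dio2 was lost when any 1 of the GFP positive arrays was left out, with a limma adjusted p of 0.0878, 0.0758 and 0.0902 without replicate 1, 2 and 3. In this fit over genes it held without each GFP negative array, and the difference ran from 1.28 to 1.58 over these 6 fits. With the 3′ to 5′ signal ratio of the control transcripts as a covariate Dio2 differed by 1.59 and did not pass (limma adjusted p = 0.0599). That ratio was 2.49 on GFP negative replicate 2 and 1.51 to 1.82 on the other arrays (log2).

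The remaining Dio2 probe sets were near background in GFP negative cells and scattered in GFP positive cells. Probe set 1426081_a_at read 4.20, 2.49 and 3.99 in the GFP positive samples, against 2.13, 2.11 and 2.13 in the GFP negative ones. Probe set 1418938_at read 3.75, 2.87 and 2.21 in the GFP positive samples, against 2.14, 2.13 and 2.09 in the GFP negative ones. In both the GFP positive arrays lay above the GFP negative arrays, with gaps of 0.35 and 0.08. Their GFP positive arrays did not fall in the same order: replicate 2 was lowest at 1426081_a_at and replicate 3 at 1418938_at. Both failed the filter, with 1 and 0 arrays at log2 4 or more, and neither was tested. A Klf9 probe set at background, 1436952_at, separated the groups in the same direction with a gap of 0.004. The share of all dim probe sets that separate this way was not counted. The sources used here do not give which Dio2 transcript each probe set reads.

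Astrocyte markers differed between the groups in the direction of Dio2, and genes of dividing cells in the opposite direction. Of 12 astrocyte markers 11 were tested, all 11 were higher in GFP positive cells and 5 passed; Gfap and Slc1a3 are on the neural stem cell list too, and Gjb6 was near background. The log2 of their summed signal was 16.41 to 16.59 on GFP positive and 15.56 to 15.89 on GFP negative arrays. All 9 tested genes of dividing cells were lower and passed, with a summed signal of 9.78 to 10.43 against 11.62 to 12.57. Over all tested genes 2.35% passed as higher and 2.11% as lower. The part of the astrocyte and dividing cell markers in the difference of Dio2 was not tested. In these bulk samples fewer cells of a type and less RNA per cell cannot be told apart. Of the neural stem cell markers 8 of 9 were above the filter on the array, while Prom1 was near background. Of the 8, 6 were positive, the median difference was 0.38, and 2 passed as higher. These were Gfap at 2.83-fold and Nr2e1 at 1.82-fold (limma adjusted p = 0.0188 and 0.0308). Nes (-0.49) and Fabp7 (-0.01) were negative and did not pass (limma adjusted p = 0.364 and 0.983). The part of the neural stem cell markers in the difference of Dio2 was not tested either. Above the filter were 1 of 6 neuron, 1 of 5 oligodendrocyte, 1 of 6 microglia and 3 of 6 ependymal and choroid plexus markers on the array, and 0 of these passed. At an unadjusted p under 0.05 limma counted 1, Dynlrb2, as higher, where 9.92% of all tested genes were.

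Among 10530 other tested genes, those whose profile over the 6 arrays was nearest to Dio2 were Ston2, Cyp4v3 and Gm10791. Each profile was centred on its own mean, and the root mean square distance was 0.07, 0.08 and 0.13 on the log2 scale. Ston2 encodes an endocytic adaptor and Cyp4v3 a fatty acid hydroxylase, and Gm10791 is a long noncoding RNA in RefSeq. Their differences were 1.49, 1.44 and 1.28, and in all 89 genes lay within a distance of 0.3 of Dio2.

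**Figure D1:**
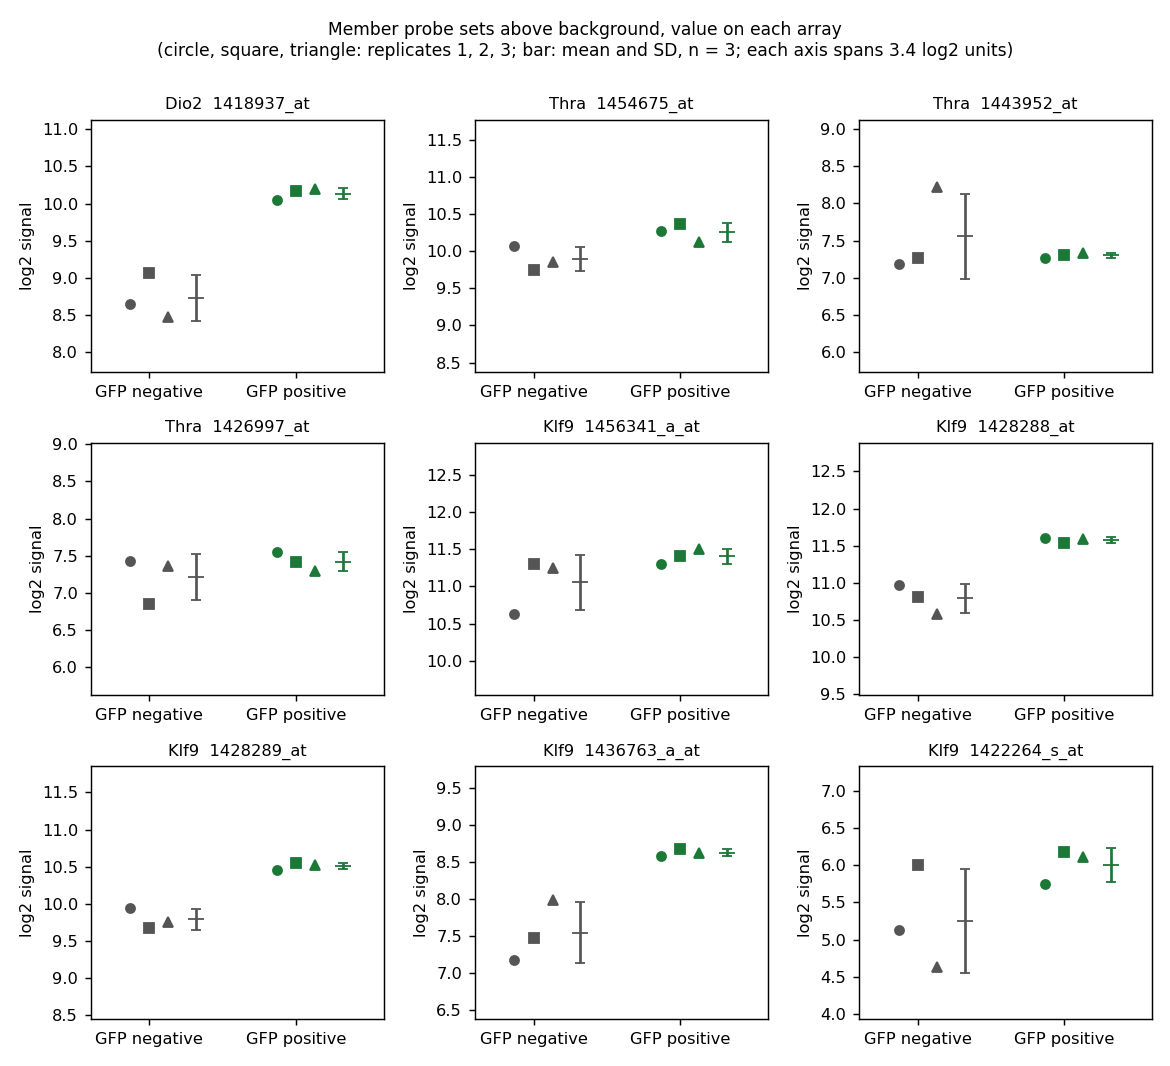
Log2 signal (vertical axis, 3.4 log2 units in every panel) of the 9 member probe sets above background, with 1 symbol per array and the mean and SD (n = 3) beside each group. The Dio2 panel shows GFP positive arrays at 10.04 to 10.19 and GFP negative arrays at 8.47 to 9.07, and 4 of the 5 Klf9 panels also show groups that do not overlap.

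The receptors differed in whether they were detected. Thra, which encodes the main thyroid hormone receptor of brain and, by splicing, a form that does not bind the hormone, had 3 probe sets above background on all 6 arrays. Its brightest, 1454675_at, read 10.27, 10.37 and 10.12 in the GFP positive samples, against 10.07, 9.75 and 9.86 in the GFP negative ones. The groups did not overlap, but the gap between them was 0.05. The means were 10.25 ± 0.13 and 9.89 ± 0.16 (SD, n = 3 each). Their difference of 0.36, with SE 0.18 and a 95% interval from -0.06 to 0.78, did not pass (limma adjusted p = 0.351). On the fold scale the interval runs from 0.96 to 1.71, so a change of 2-fold at this probe set lies outside it.

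In both other Thra probe sets a single GFP negative array stood apart. Probe set 1426997_at read 7.55, 7.42 and 7.30 in the GFP positive samples, against 7.42, 6.85 and 7.37 in the GFP negative ones, a difference of 0.21 with GFP negative replicate 2 low, and of 0.03 without that array. Probe set 1443952_at read 7.27, 7.30 and 7.33 in the GFP positive samples, against 7.19, 7.27 and 8.22 in the GFP negative ones. There the difference of -0.25 came with a single high array, GFP negative replicate 3, and without it was 0.08. Neither passed in the fit of all probe sets (limma adjusted p = 0.719 and 0.749). RefSeq places Nr1d1 across part of Thra, and which transcript or splice form each probe set reads was not tested.

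The profile of Thra over the arrays was a common one. Gabarapl1, Ankrd46 and Itpkb were nearest, at distances of 0.05, 0.06 and 0.06, and 3175 of 10530 genes lay within 0.3. Thrb, the receptor known from pituitary, liver and sensory tissue, read 1.95, 1.97 and 1.98 in the GFP positive samples, against 1.97, 1.96 and 1.93 in the GFP negative ones. All 6 values lay at background, so Thrb signal was not detected with its 1 probe set, and no direction is given.

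Hr, the product of the hairless gene, is both a target of the hormone in brain and a corepressor that binds its receptors. Probe set 1422110_at read 3.94, 4.16 and 4.18 in the GFP positive samples, against 3.07, 3.53 and 3.75 in the GFP negative ones. The groups did not overlap, with a gap of 0.19, and the means were 4.09 ± 0.13 and 3.45 ± 0.35 (SD, n = 3 each). Only 2 of 6 arrays reached log2 4, so Hr was not tested; in a fit without any filter its difference of 0.64 had a limma adjusted p of 0.222. The other probe set, 1435950_at, read 1.99 to 2.04 on all 6 arrays.

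**Figure D2:**
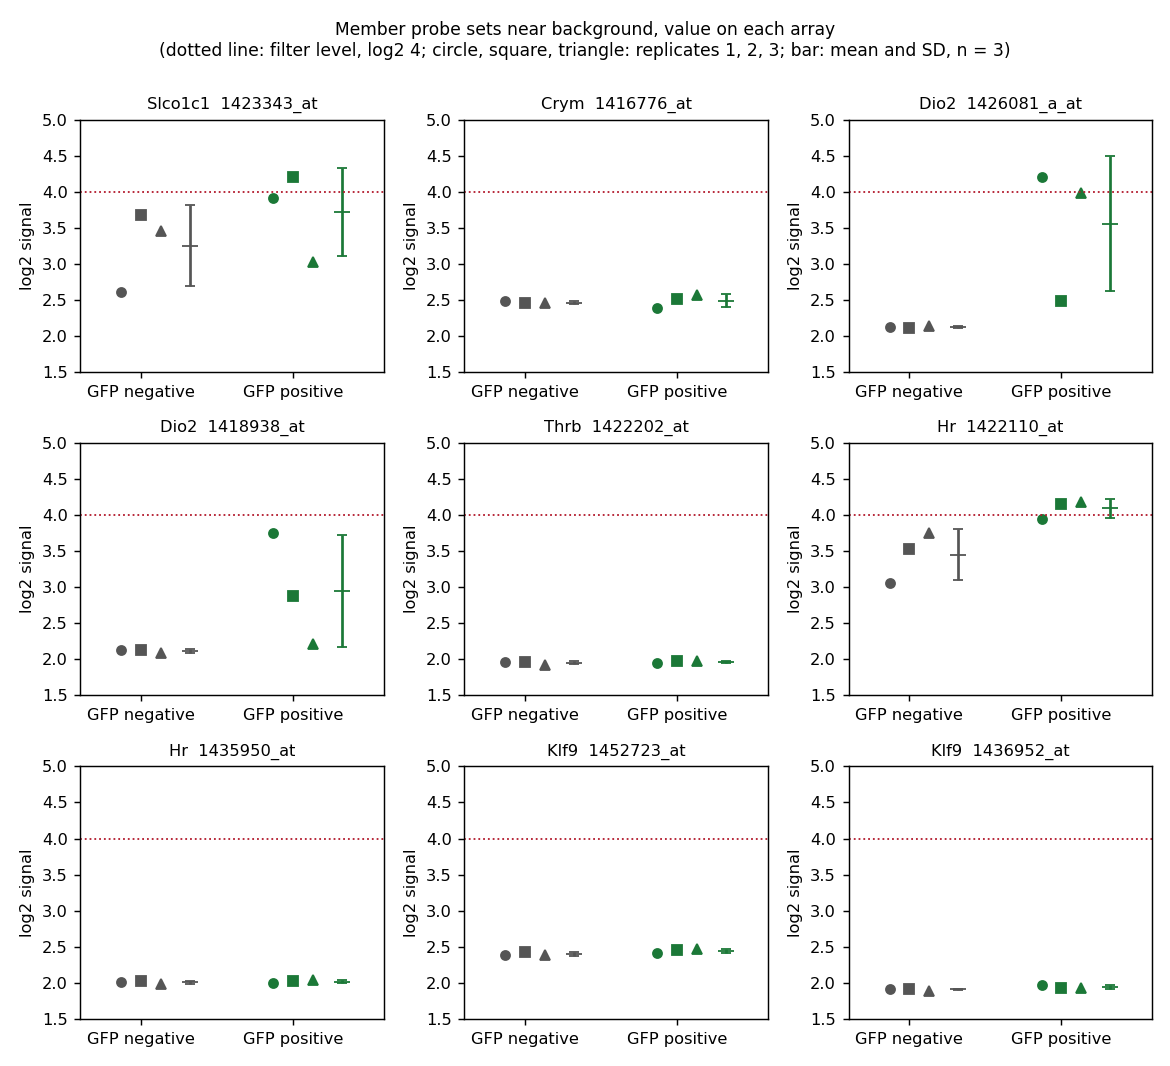
Log2 signal (vertical axis) of the 9 member probe sets near background, with 1 symbol per array, the mean and SD (n = 3) beside each group, and the filter level of log2 4 as a dotted line. Crym, Thrb and 3 further probe sets stay flat near 2, while 2 Dio2 probe sets and 1 of Hr are higher on the GFP positive arrays.

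Klf9, a zinc finger transcription factor and one of the most direct targets of thyroid hormone in brain, was read by 7 probe sets, of which 5 were above background on all 6 arrays. The 5 share a gene and are not replicates of each other. The probe set with the highest mean, 1456341_a_at, stands for the gene. It read 11.31, 11.41 and 11.51 in the GFP positive samples, against 10.62, 11.30 and 11.25 in the GFP negative ones. The groups were separated by only 0.01, since only GFP negative replicate 1 was low. The difference was 0.35 (SE 0.23, 95% interval -0.18 to 0.88) and did not pass (limma adjusted p = 0.492); without that array it was 0.14.

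Nearly as bright, probe set 1428288_at separated the groups further. It read 11.60, 11.54 and 11.59 in the GFP positive samples, against 10.98, 10.81 and 10.58 in the GFP negative ones, with a gap of 0.56. The means were 11.58 ± 0.03 and 10.79 ± 0.20 (SD, n = 3 each), which differ by 0.79 or 1.72-fold (95% interval 0.36 to 1.22). Probe set 1428289_at read 10.46, 10.55 and 10.52 in the GFP positive samples, against 9.95, 9.67 and 9.76 in the GFP negative ones, a difference of 0.72. Here too all GFP positive arrays were above all GFP negative arrays. Neither passed in the fit over single probe sets (limma adjusted p = 0.0813 and 0.0877).

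The largest Klf9 difference was at 1436763_a_at, which read 8.58, 8.67 and 8.61 in the GFP positive samples, against 7.18, 7.47 and 7.99 in the GFP negative ones. It was 1.07 or 2.10-fold (SE 0.24, 95% interval 0.51 to 1.64), and it missed the threshold (limma adjusted p = 0.0724). Without GFP negative replicate 3, the highest of its group, it was 1.29 and passed (limma adjusted p = 0.0171). It did not pass when any 1 of the 5 other arrays was left out (limma adjusted p of 0.116 to 0.276). Probe set 1422264_s_at read 5.75, 6.18 and 6.11 in the GFP positive samples, against 5.13, 6.01 and 4.63 in the GFP negative ones. These groups overlapped, and the difference of 0.75 did not pass (limma adjusted p = 0.367); leaving out GFP negative replicate 3 gave 0.44, and leaving out GFP negative replicate 2 gave 1.13. The 2 other probe sets, 1452723_at and 1436952_at, lay at background, with means of 2.44 and 1.94 in GFP positive and 2.40 and 1.91 in GFP negative cells.

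All 5 Klf9 probe sets above background were thus higher in GFP positive cells, by 0.35 to 1.07, and 0 of them passed in the fit of all probe sets. At an unadjusted p under 0.05 limma counted 3 of them, where 8.72% of all probe sets were higher. When Klf9 was represented by the mean of these 5 probe sets it differed by 0.74 and passed narrowly (limma adjusted p = 0.0492). Without probe sets that carry an a, s or x suffix, which leaves 1428288_at as the brightest, it did not pass (limma adjusted p = 0.0609). The astrocyte markers given beside Dio2 differed in the direction of Klf9 as well and the dividing cell markers in the opposite one, and their part was not tested.

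Across the 9 member probe sets above background, 8 had a positive difference and 6 had all GFP positive arrays above all GFP negative arrays. Over all probe sets above the filter 12.6% separated that way. Of the 6, 4 belong to Klf9, 1 to Dio2 and 1 to Thra. One of the 9, that of Dio2, passed as higher (limma adjusted p = 0.0284 in this fit), where 1.3% of all probe sets did. In this fit its call held only without GFP negative replicate 3 (limma adjusted p = 0.0229) and was lost without any other array, at 0.0589 to 0.148. At the level of genes all 3 tested members separated in that direction, against 13.8% of all tested genes. The gap was 0.97 for Dio2 but only 0.05 for Thra and 0.01 for Klf9, and these 2 did not pass.

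**Figure D3:**
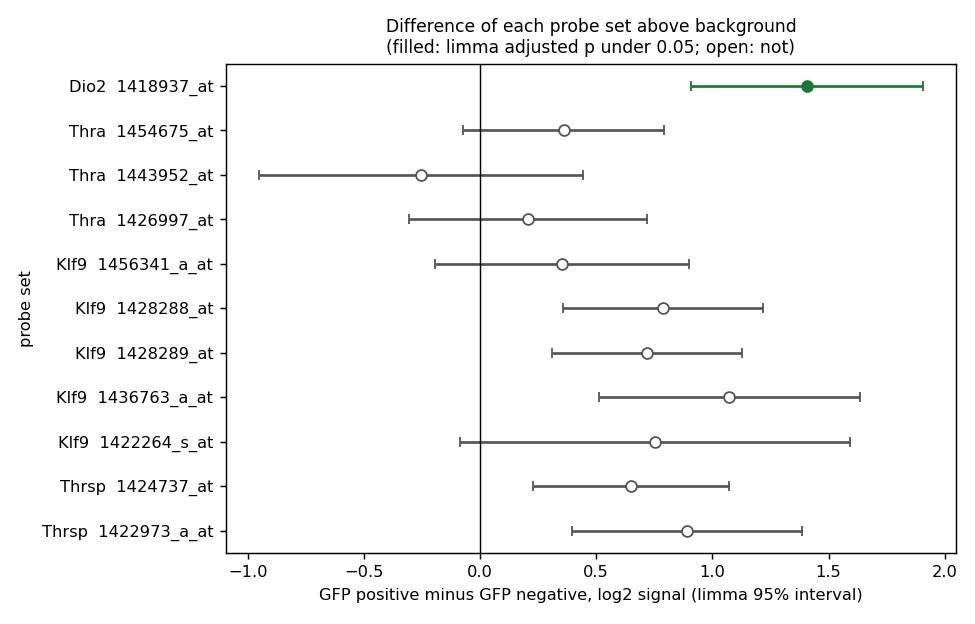
Difference of each member and Thrsp probe set above background, with GFP negative subtracted from GFP positive log2 signal (horizontal axis) with limma 95% intervals. Dio2 is the only filled point, at 1.41; 3 Klf9 probe sets (0.72, 0.79 and 1.07) have intervals above 0 without passing.

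Thrsp, whose product gives the reporter its name, was bright in both groups. Its brightest probe set differed by 0.65 (95% interval 0.25 to 1.05) and did not pass (limma adjusted p = 0.0893). Another bright one, 1422973_a_at, differed by 0.89 (95% interval 0.39 to 1.39). It did not pass in the fit of all probe sets (limma adjusted p = 0.0843). Both differences were smaller than the 1.41 of Dio2, and this contrast between the 2 genes was not tested.

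Other genes of thyroid hormone action were taken from 9 lists with 60 genes, of which 56 had a probe set and 41 were tested. Of these 2 passed as higher and 0 as lower, where 2.35% and 2.11% of all tested genes did. In all 23 were positive and 18 negative, with a median difference of 0.05. At an unadjusted p under 0.05 limma counted 6 as higher and 2 as lower, where 9.92% and 8.28% of all tested genes were. Over all genes tested the median was 0.00, and 50.5% were positive. The 2 genes, Bdnf and Reln, belong to the list of genes known to be induced by the hormone in brain, liver or pituitary. In that list 9 of 16 genes on the array were tested, 7 of them were positive, and the median was 0.65. Thrsp, the gene behind the reporter that divides the groups, is among the 7, and the median is its own difference. It is also among the 6 counted as higher at an unadjusted p under 0.05. Its direction is thus not independent of the grouping.

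Bdnf, a neurotrophin, read 7.99, 8.27 and 7.89 in the GFP positive samples, against 6.92, 6.14 and 6.81 in the GFP negative ones. The groups did not overlap. The difference was 1.43 or 2.69-fold (SE 0.25, limma adjusted p = 0.0270). Reln, the secreted matrix protein reelin, read 8.74, 9.11 and 9.21 in the GFP positive samples, against 7.62, 8.28 and 7.45 in the GFP negative ones, again without overlap. It was 2.36-fold higher (1.24, SE 0.26) and passed narrowly (limma adjusted p = 0.0463). Both calls were lost without any 1 of the GFP positive arrays. That of Bdnf was also lost without GFP negative replicate 2 and that of Reln without GFP negative replicate 1. Over these fits the limma adjusted p reached 0.121 for Bdnf and 0.191 for Reln. The calls were lost too without a filter on dim genes (0.0682 and 0.107) and with the 3′ to 5′ covariate (0.108 and 0.0786), and that of Reln in the fit over single probe sets (0.0683). Both Bdnf probe sets carry an a, s or x suffix. Bdnf was therefore not tested when probe sets with these suffixes were left out.

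At an unadjusted p under 0.05 limma counted 5 of the 9 tested genes of that list as higher and 0 as lower, beside the same 9.92% and 8.28% of all tested genes. Besides Bdnf, Reln and Thrsp these were Gpd2, mitochondrial glycerol phosphate dehydrogenase (0.84, limma adjusted p = 0.105), and Pcp2, a Purkinje cell protein (0.66, limma adjusted p = 0.0891); these 2 names were added once their values were known. Neither Fasn (-0.18) nor Acaca (-0.19), enzymes of fatty acid synthesis that the hormone induces in liver, passed. Me1 (0.29) and Srebf1 (0.17) of the same list were positive and did not pass either. Mbp, Nrgn and Nefh, targets known from oligodendrocytes and neurons, lay near background in both groups.

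Genes reported as repressed by the hormone or its receptor in neural stem cells did not move together: of 4, all tested, 2 were positive and 2 negative, and 0 passed. Sox2 differed by 0.56 (limma adjusted p = 0.285), with all GFP positive arrays above all GFP negative arrays, and Myc by 0.22 (limma adjusted p = 0.792). Ccnd1, a D-type cyclin, differed by -0.55 (limma adjusted p = 0.136) and Egfr, the receptor of epidermal growth factor, by -0.21 (limma adjusted p = 0.600). At an unadjusted p under 0.05 limma counted 1 as lower, Ccnd1, where 8.28% of all tested genes were.

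Partners of the receptors did not pass either. Rxra and Rxrb, the retinoid X receptors that pair with them, differed by 0.53 and 0.03 (limma adjusted p = 0.322 and 0.980), and Rxrg was near background. Of 7 coactivators, all tested, 4 were positive and 3 negative. The brightest, the acetyltransferase Crebbp and the steroid receptor coactivator Ncoa3, differed by 0.06 and 0.14. Of 5 tested corepressor partners 1 was positive and 4 negative, with all differences between -0.10 and 0.03. Tbl1xr1 and Tbl1x, which bridge the corepressor to histone deacetylase, differed by 0.03 and -0.08. At an unadjusted p under 0.05 limma counted 0 in each of these 3 lists.

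Further carriers and the selenium machinery were also measured. Slc7a5 and Slc3a2, the chains of an amino acid carrier that also takes thyroid hormone, differed by 0.20 and 0.05 (limma adjusted p = 0.721 and 0.938), and limma counted 0 of them at an unadjusted p under 0.05. The 3 other carriers on the array, Slc16a10, Slco1a4 and Slc7a8, were near background in both groups. Deiodinases contain selenocysteine, and of 6 tested factors of its synthesis and insertion 2 were positive, 4 negative and 0 passed. Sephs2, selenophosphate synthetase, read 12.31, 12.11 and 11.81 in the GFP positive samples, against 12.55, 12.51 and 13.18 in the GFP negative ones. All GFP negative arrays were higher, but the difference of -0.67 did not pass (limma adjusted p = 0.202). It was the 1 gene of its list at an unadjusted p under 0.05, where 8.28% of all tested genes were lower. Sepsecs, which makes selenocysteine on its transfer RNA, differed by 0.13, and Dio1, the deiodinase of liver, was near background.

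Of 6 genes that control the stability of Dio2 protein, all tested, 3 were positive, 3 negative and 0 passed. Wsb1, an adaptor for its ubiquitination, differed by 0.30 (limma adjusted p = 0.556) and Marchf6, a ubiquitin ligase of the endoplasmic reticulum, by 0.44 (limma adjusted p = 0.240). At an unadjusted p under 0.05 limma counted 1 as higher, Marchf6, where 9.92% of all tested genes were. Ttr, Alb and Serpina7, the carriers of the hormone in blood and cerebrospinal fluid, were near background in both groups.

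**Figure D4:**
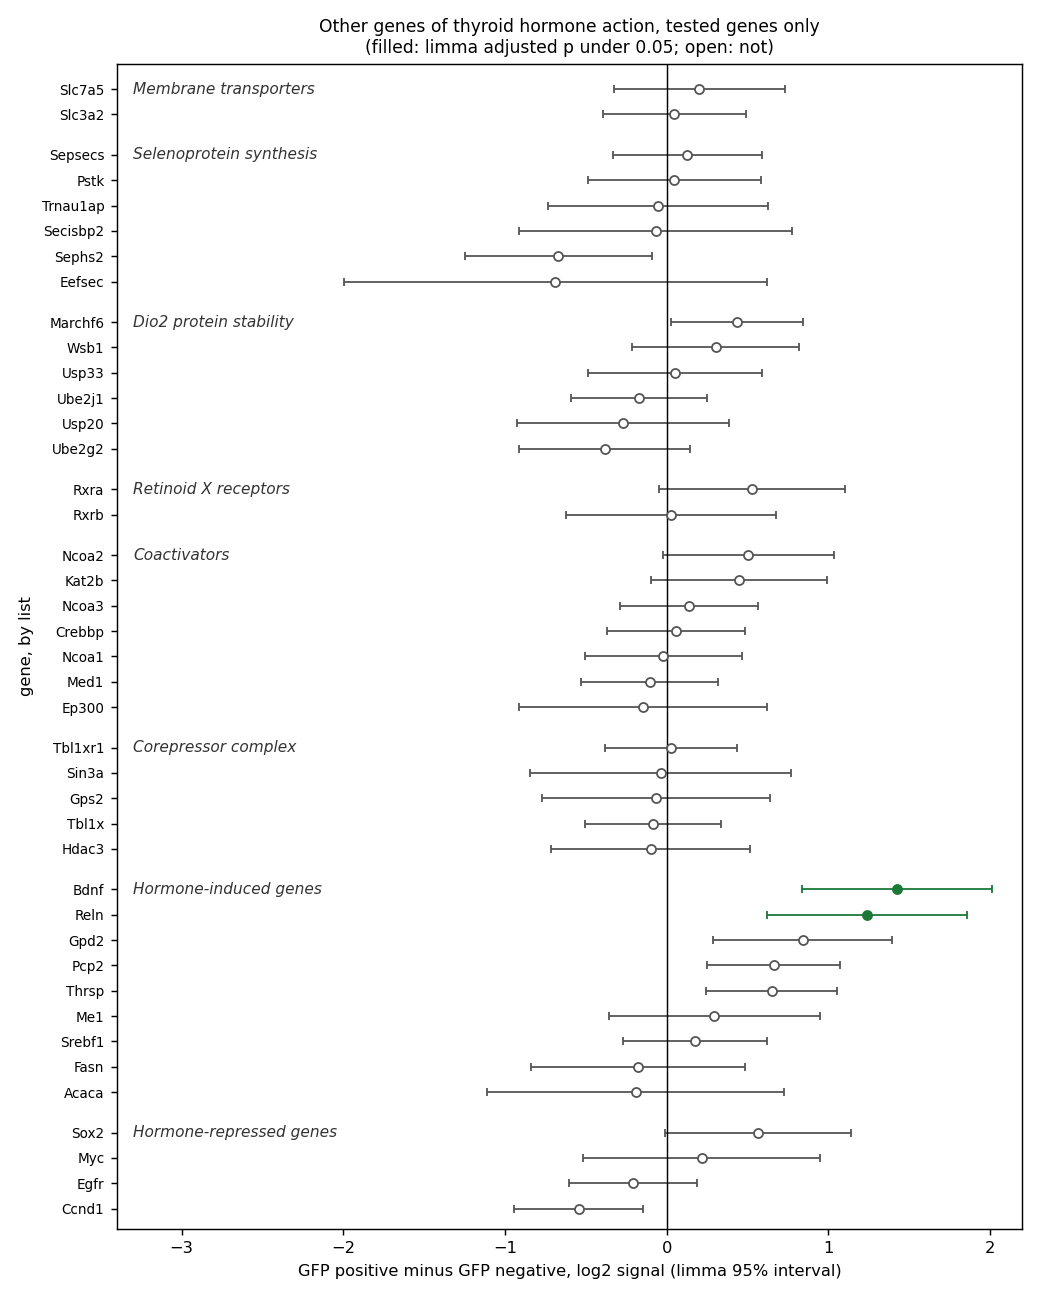
Difference of the 41 tested genes of thyroid hormone action, with GFP negative subtracted from GFP positive log2 signal (horizontal axis) with limma 95% intervals, in 8 lists (none of the 3 blood carriers was tested). Bdnf and Reln are the filled points, at 1.43 and 1.24.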

How the data were processed

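RNA of 3 samples positive and 3 negative for the Spot14 GFP reporter was biotin labelled and hybridised to 1 array each, per the labels. The authors deposited log2 values for 45101 probe sets, for which the submitters' processing notes name GCRMA; the sources used here do not give a version. GCRMA equalises the distribution of the arrays and pulls dim probe sets to a floor, so differences near background depend on it.

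Of the probe sets 34945 named exactly 1 gene. Each gene was its brightest probe set over all 6 arrays, and 10531 genes with at least 3 arrays at log2 4 or more were tested by limma 3.58.1 under R 4.3.3 (lmFit, then eBayes, Benjamini-Hochberg over all genes, threshold 0.05). The other probe sets were read in the same fit over 18742 probe sets. The steps were tested on simulated data. The number of arrays limits the precision.

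The members and lists were chosen with earlier results of these data known. All members are named. Of each list the genes past the threshold are named or, where none passed, the 2 brightest. Some further genes of the lists are named beyond that rule. Alternatives were other filters, normalizations, probe set choices, variance models, array weights, a replicate block, a covariate and each array left out; those for Thrsp, Bdnf, Reln and the lists were added after seeing the data.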

Additional observations from a re-analysis of the deposited data

How the results depend on the processing

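The members past the threshold stayed at 1 higher and 0 lower in 8 of 11 alternatives that keep all arrays. They were 0 higher with the replicate block and with the 3′ to 5′ covariate, 2 with the mean of a gene's probe sets, and 0 to 1 with each array left out; 0 were lower in all of these. Dio2 differed by 1.41 with the replicate block (limma adjusted p = 0.0689) and by 1.59 with the covariate, and by 1.28 to 1.58 with each array left out. Klf9 passed with the mean of its probe sets (0.74); it ran from 0.14 to 0.47 with each array left out and never passed there. Thra ran from 0.29 to 0.45 with each array left out and from 0.10 to 0.45 over the other alternatives, and did not pass in any. The cause of these changes was not tested, though each array left out also leaves fewer samples.

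Over all genes 248 were higher and 222 lower. The counts were 1051 and 603 with array weights, 19 and 8 with the replicate block, 9 and 0 with the covariate, and 101 were lower without a filter; they ran from 1 to 801 and from 0 to 443 with each array left out. The labels do not say that a replicate number is shared. Deviations of equally numbered arrays from their group means correlated at -0.25, 0.05 and -0.50 across genes, so the numbers were not taken to pair the samples. Thrsp passed with trend and robust settings, with array weights and without GFP negative replicate 3 (limma adjusted p = 0.0205, 0.0144 and 0.0331). Of the pathway genes 0 to 6 were higher over all alternatives and at most 1 was lower. The calls of Bdnf and Reln were also lost with the replicate block (limma adjusted p = 0.104 and 0.117).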
